A study of Mus musculus with 4 samples.

Results

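The genes described here are 10 of the 53379 in the deposited table: 6 subunit genes of the AP-3 adaptor complex (Ap3m1, Ap3m2, Ap3b1, Ap3d1, Ap3s1 and Ap3s2), 3 paralogues from the AP-1 and AP-2 complexes (Ap1m1, Ap2m1 and Ap2b1), and Vcl, which overlaps Ap3m1 in the annotation. They were measured in cultured mouse astrocytes labelled Npas3-/- and in wild-type astrocytes. Ap3m1 was chosen by its far lower counts in Npas3-/- in this same comparison, so its genotype difference is given as a description and without a test. The other 9 were added by complex membership, paralogy or overlap, with their values already known.

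AP-3 is a heterotetramer of a delta, a beta, a mu and a sigma subunit that sorts membrane proteins from endosomes into vesicles bound for lysosomes and lysosome-related organelles. The mu subunit reads tyrosine-based sorting signals in the tails of cargo. Mu, beta and sigma are each encoded by a pair of genes, and the mu and beta forms encoded by Ap3m2 and Ap3b2 are known mainly from neurons, where a neuronal AP-3 contributes to synaptic vesicle proteins. AP-1 does comparable sorting between the trans-Golgi network and endosomes, and AP-2 at the plasma membrane. Vinculin, encoded by Vcl, is an unrelated actin-linking protein of cell adhesions.

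The study compared 2 Npas3-/- with 2 wild-type samples of C57BL/6 mouse cortical astrocytes, dissected at postnatal day 0, shaken to remove other cells and taken at day 14 in vitro from medium with serum. The deletion is given as Npas3-/- with no allele named, and no label states whether replicates were separate cultures or animals. The p-values therefore rest on a spread between samples that may be technical only, and in bulk RNA fewer cells of a type and less RNA per cell cannot be told apart. Libraries held 85897778 to 86932708 counts in Npas3-/- and 82965565 to 85688472 in wild type, and 18838 genes were tested, all 10 members among them. Npas3 itself, which encodes a bHLH-PAS transcription factor, had 2055 and 1386 counts in Npas3-/- samples against 5129 and 8739 in wild type, counted over the whole gene, so that deleted exons are not seen separately. Its log2 fold change was -1.82 (SE 0.33; adjusted p = 0.0181, edgeR). With each library's trend on the GC content and length of transcripts removed, it was -0.57 (SE 0.22; adjusted p = 0.154, edgeR). All 10 astrocyte markers checked were present in every library, and of these 3 were called higher in Npas3-/- (Gfap, Aldoc and Glul), 3 were called lower (Aqp4, Gja1 and Slc1a2) and 4 did not pass by edgeR. Their sum, of which Glul was the most abundant, was 6920 and 7130 CPM (counts scaled to library size by TMM) in Npas3-/- and 3900 and 4940 CPM in wild type. Aqp4, the water channel gene of astrocyte endfeet, had 22.1 and 16.5 CPM in Npas3-/- and 139 and 482 CPM in wild type, and the part of these marker differences in the results was not tested. S100b, the least abundant, had 12 and 61 counts in Npas3-/- and 36 and 66 in wild type. The 9 neuronal markers summed to 202 and 201 CPM in Npas3-/- and 309 and 166 CPM in wild type, with Rbfox3 and Snap25 at 0 in both Npas3-/- libraries. The 7 microglial markers summed to at most 8.94 CPM in Npas3-/- and 10.5 CPM in wild type. The 7 oligodendrocyte-lineage markers summed to 310 and 301 CPM in Npas3-/- and 302 and 259 CPM in wild type, with Mog at 0 in every library. The 5 endothelial markers summed to 10.6 and 6.88 CPM in Npas3-/- and 9.03 and 6.31 CPM in wild type, and the 6 fibroblast or meningeal markers to 289 and 345 CPM against 396 and 331 CPM.

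The start sites of the members could be compared with RefSeq promoter windows (GRCm38.p6, the build mm10), which hold 7 of the 10. Ap3m1 lies head to head with Adk, the adenosine kinase gene, and the 131 bases between the RefSeq start sites of both genes are printed because the member that differed most and a neighbour that differed less both start there. The 250 bases before Vcl are printed beside them. Both runs are given 5′ to 3′ on the strand of the named gene, and capitals mark ACGTG, the core bound by ARNT-containing bHLH-PAS dimers, and CCAAT, the box bound by NF-Y, each searched on both strands.
Ap3m1, minus strand, chr14:21052443-21052573: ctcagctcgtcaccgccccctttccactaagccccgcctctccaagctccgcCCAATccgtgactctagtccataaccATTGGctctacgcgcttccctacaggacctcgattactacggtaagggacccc
Vcl, plus strand, chr14:20929148-20929397: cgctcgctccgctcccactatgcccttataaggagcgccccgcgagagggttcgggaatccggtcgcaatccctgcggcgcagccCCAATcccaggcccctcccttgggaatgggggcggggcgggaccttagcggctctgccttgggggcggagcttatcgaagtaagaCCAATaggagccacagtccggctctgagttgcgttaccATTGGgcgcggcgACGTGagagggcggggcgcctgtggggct
The stretch between the RefSeq starts of Ap3m1 and Adk holds CCAAT in either orientation at 2 positions and no ACGTG. The GENCODE start of Ap3m1, at 21052508, lies within this stretch, so that the match nearer to Ap3m1 is inside the gene as GENCODE annotates it and 1 match is before it. The stretch before Vcl holds CCAAT at 3 positions and ACGTG at 1. Over the full windows of 300 bases, ACGTG was found in 3 of 7 members (Ap3b1, Ap2m1 and Vcl) and in 19.7% of all 32544 distinct windows. CCAAT was found in 4 of 7 members and in 37.4% of all windows. These matches describe letters in the windows only.

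Among the mu subunits, Ap3m1 was far lower in Npas3-/- astrocytes while its paralogue Ap3m2 was present in all 4 libraries. Ap3m1 (ENSMUSG00000021824.13, mm10 chr14:21031442-21052508, minus strand), which encodes the widely expressed mu subunit, had 302 and 281 counts in Npas3-/- and 8233 and 14664 in wild type. These counts correspond to 3.65 and 3.65 CPM in Npas3-/- and 92.7 and 157 CPM in wild type. Both Npas3-/- libraries lay far below both wild-type libraries, and the wild-type libraries differed from each other by more than the Npas3-/- libraries did. The Npas3-/- CPM values lie closer together than counting error at 302 and 281 counts, so their SD is no measure of the spread between samples. The Npas3-/- mean of 3.65 ± 0.00284 CPM was 2.92% of the wild-type mean of 125 ± 45.2 CPM (SD, n = 2 each), a log2 fold change of -5.09 (SE 0.35). When each library's trend on the GC content and length of transcripts was removed (the GC and length correction), it was -2.67 (SE 0.22).

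Ap3m2 (ENSMUSG00000031539.6, chr8:22787354-22805622, minus strand), the mu gene known mainly from neurons, stood at 117 and 103 CPM in Npas3-/- and 73.1 and 71.5 CPM in wild type. Both Npas3-/- libraries were above both wild-type libraries. The log2 fold change was 0.60 (SE 0.19), which missed the threshold of 0.05 by edgeR's quasi-likelihood test (adjusted p = 0.0565, Benjamini-Hochberg over all tested genes) and passed by DESeq2 (adjusted p = 0.0289). In the corrected fit Ap3m2 passed by edgeR, at 0.73 (SE 0.15; adjusted p = 0.0427), a call that was lost whichever library was left out (adjusted p 0.199 and 0.215 when Npas3-/- replicates 1 and 2 were left out in turn, 0.0578 and 0.0889 for wild-type replicates 1 and 2). The summed neuronal markers did not separate the genotypes (202 and 201 CPM in Npas3-/-, 309 and 166 CPM in wild type), 2 of the 7 tested were lower and 5 did not pass, and their part in the Ap3m2 level was not tested.

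**Figure D1:**
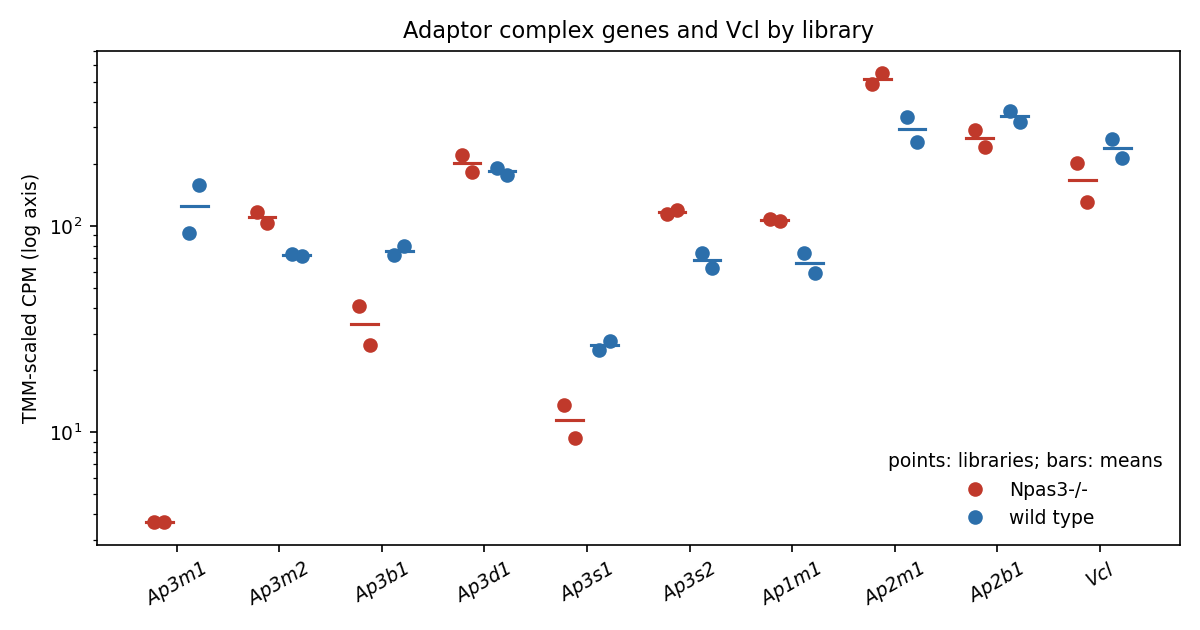
Level of each of the 10 genes in TMM-scaled CPM on a log axis, with Npas3-/- libraries left of wild-type libraries. Points are single libraries and bars are means of 2. Ap3m1 stood at 3.65 CPM in both Npas3-/- libraries and at 92.7 and 157 CPM in wild type, the widest gap shown, and the libraries of both genotypes overlapped for Ap3d1.

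Set against each other per length (CPM per kilobase of merged exons), the mu genes differed in balance between genotypes. Ap3m1 made up 1.98% and 2.23% of the summed Ap3m1 and Ap3m2 level in Npas3-/-, and 45.0% and 58.6% in wild type. The widest Wilson 95% interval of any subunit share extended 1.52 percentage points from it, for counting error alone. The sum of both mu genes was 26.3 and 23.3 CPM per kilobase in Npas3-/- and 29.4 and 38.1 CPM per kilobase in wild type, so that the genotypes did not overlap but lay much closer than for Ap3m1 alone. The length was also reduced to exon bases that no other gene covers, with the whole-gene counts kept. The Ap3m1 share was then 2.79% and 3.15% in Npas3-/- and 53.8% and 66.8% in wild type. This choice of length applies only if reads from shared bases were not counted, which is not stated for these counts. These shares use the counts that chose Ap3m1 and are descriptive.

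Among the beta and delta subunits, Ap3b1 was lower in Npas3-/- and Ap3d1 overlapped between genotypes. Ap3b1 (ENSMUSG00000021686.5, chr13:94358960-94566317, plus strand), the widely expressed beta gene that is mutated in pearl mice and in a form of human Hermansky-Pudlak syndrome, had 40.8 and 26.4 CPM in Npas3-/- and 72.3 and 79.5 CPM in wild type. It fell by 1.17 on the log2 scale (SE 0.27; adjusted p = 0.03, edgeR). Both Npas3-/- libraries were below both wild-type libraries. The call ended when Npas3-/- replicate 2 (adjusted p = 0.166, same edgeR test) or wild-type replicate 2 (adjusted p = 0.0743) was left out and with the GC and length correction, where Ap3b1 stood at -0.48 (SE 0.20; adjusted p = 0.183).

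Its paralogue Ap3b2, which is not among the 10, had 15.9 and 16.3 CPM in Npas3-/- and 11 and 13.4 CPM in wild type (log2 fold change 0.40, SE 0.27; adjusted p = 0.279, edgeR). Per length, Ap3b1 made up 78.0% and 69.1% of the beta transcripts in Npas3-/- and 90.1% and 89.1% in wild type. Ap3d1 (ENSMUSG00000020198.8, chr10:80706956-80742264, minus strand), the single delta gene, whose loss in mocha mice removes both forms of the complex, had 221 and 183 CPM in Npas3-/- and 191 and 177 CPM in wild type. These libraries overlapped (log2 fold change 0.13, SE 0.20; adjusted p = 0.639, edgeR), and the sign turned with scaling by library totals (-0.09), without Npas3-/- replicate 1 (-0.01) and with the correction (-0.01).

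The sigma subunits moved in opposite directions. Ap3s1 (ENSMUSG00000024480.8, chr18:46741876-46790826, plus strand) had 13.5 and 9.38 CPM in Npas3-/- and 25.1 and 27.8 CPM in wild type, and fell by 1.21 on the log2 scale (SE 0.29; adjusted p = 0.0317, edgeR). Ap3s2 (ENSMUSG00000063801.7, chr7:79875325-79920649, minus strand) had 114 and 119 CPM in Npas3-/- and 73.7 and 62.1 CPM in wild type, and rose by 0.78 (SE 0.20; adjusted p = 0.0353, same edgeR test). The genotypes did not overlap for either gene. Ap3s1 made up 22.5% and 16.3% of the per-length sigma level in Npas3-/- and 45.6% and 52.5% in wild type, while the sum of both genes was 25.0 and 24.0 CPM per kilobase in Npas3-/- and 23.0 and 22.1 in wild type.

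With the GC and length correction the direction of Ap3s1 turned, to 0.42 on the log2 scale (SE 0.31; adjusted p = 0.417, edgeR), and that of Ap3s2 became 1.37 (SE 0.22; adjusted p = 0.0277, edgeR). The corrected Ap3s2 call was lost when Npas3-/- replicate 1 (adjusted p = 0.105), Npas3-/- replicate 2 (0.164) or wild-type replicate 2 (0.0514) was left out. Leaving out single libraries ended the Ap3s1 call without Npas3-/- replicate 1 (adjusted p = 0.0628), Npas3-/- replicate 2 (0.178) or wild-type replicate 2 (0.0799). The Ap3s2 call, near the threshold with all libraries, was lost whichever library was left out: the adjusted p was 0.127 and 0.19 when Npas3-/- replicates 1 and 2 were left out in turn, and 0.0555 and 0.146 for wild-type replicates 1 and 2 (edgeR). Scaling by library totals (0.55, adjusted p = 0.0834) and testing all genes without a filter on low counts (0.77, adjusted p = 0.0582) also ended it by edgeR.

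**Figure D2:**
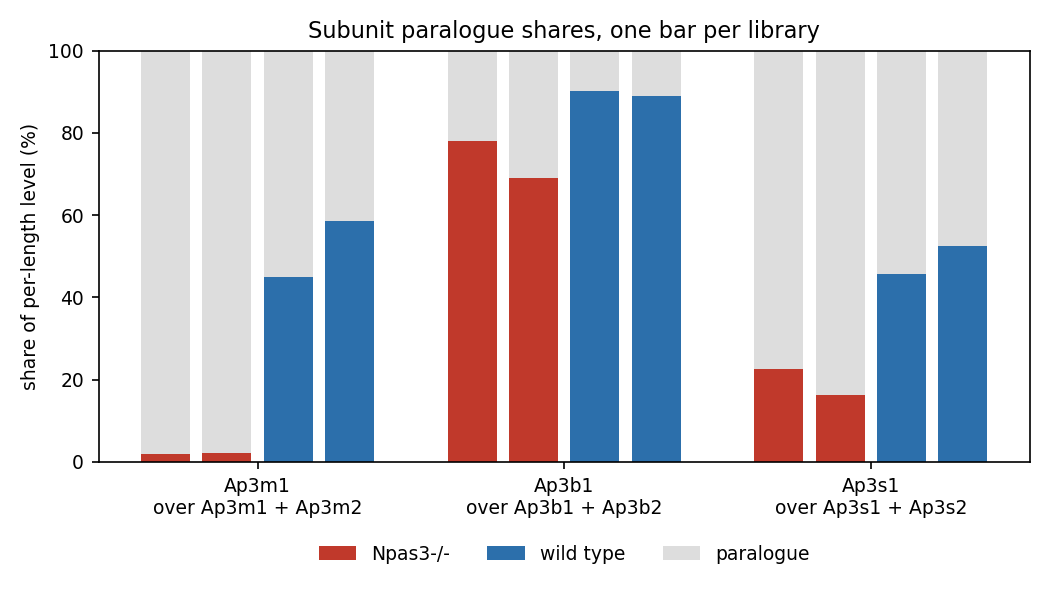
Share of the first paralogue in the summed per-length level of each mu, beta and sigma pair, in percent, with 1 bar per library and Npas3-/- left of wild type in each pair. Ap3m1 made up 1.98% and 2.23% in Npas3-/- against 45.0% and 58.6% in wild type, and Ap3b1 and Ap3s1 also held smaller shares in Npas3-/-.

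The AP-1 and AP-2 paralogues were measured beside AP-3 as members of the same protein family. Ap2m1 (ENSMUSG00000022841.14, chr16:20535478-20544909, plus strand), the mu subunit that reads the same class of signals at the plasma membrane, had 485 and 549 CPM in Npas3-/- and 335 and 255 CPM in wild type, and rose by 0.81 (SE 0.23; adjusted p = 0.0468, edgeR). The genotypes did not overlap. This call was lost without Npas3-/- replicate 1 (adjusted p = 0.131), Npas3-/- replicate 2 (0.221) or wild-type replicate 2 (0.153), with scaling by library totals (0.0976), without a filter on low counts (0.0785) and with the GC and length correction, where the log2 fold change was 0.87 (SE 0.20; adjusted p = 0.0524).

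Ap1m1 (ENSMUSG00000003033.15, chr8:72240018-72257385, plus strand), the AP-1 mu subunit gene, stood at 108 and 106 CPM in Npas3-/- and 73.7 and 58.9 CPM in wild type. The genotypes did not overlap. Its log2 fold change of 0.69 (SE 0.20) missed the threshold by edgeR (adjusted p = 0.0508), passed by DESeq2 (adjusted p = 0.0186) and was 0.05 with the correction. Ap2b1 (ENSMUSG00000035152.14, chr11:83299024-83405035, plus strand), the AP-2 beta subunit gene, had 292 and 242 CPM in Npas3-/- and 362 and 318 CPM in wild type. Its libraries did not overlap between genotypes, but the log2 fold change of -0.35 (SE 0.21) did not pass (adjusted p = 0.244, edgeR) and turned to 0.30 with the correction.

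Vcl (ENSMUSG00000021823.10, chr14:20929398-21033676, plus strand) ends inside the 3′ end of Ap3m1, on the other strand. Vcl had 16662 and 10119 counts, or 201 and 131 CPM, in Npas3-/- and 23461 and 20076 counts, or 264 and 214 CPM, in wild type. Npas3-/- libraries were lower without overlap, but the log2 fold change of -0.53 (SE 0.27) did not pass the test (adjusted p = 0.186, edgeR), and with the correction it turned to 0.28 (SE 0.21; adjusted p = 0.428).

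The annotated overlap covers 2235 bases, chr14:21031442-21033676, of which 2090 are exonic in both genes. That is 29.8% of the merged exons of Ap3m1 and 25.5% of those of Vcl. Whether the counting used strand is not stated for these counts, so reads from these bases could be dropped or counted in either gene, and the part of the 302 and 281 Ap3m1 counts in Npas3-/- that came from Vcl transcripts was not tested. Vcl had at least 10119 counts in every library.

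Sequence shared with other genes touched some members more than others. Of the 6702 distinct 31-base words in the longest coding Ap3m1 transcript, 2064 also occur in Vcl transcripts and 1013 in the pseudogene Ap3m1-ps, and 0 in the longest Ap3m2 transcript. Ap3m1 and Vcl share 2090 exonic bases on opposite strands, as given above, so their shared words are no separate likeness. Ap3m1-ps had 36 and 0 counts in Npas3-/- and 3 and 32 in wild type. For Ap2m1, 1173 of 2907 words occur in the pseudogene Gm13509, which had 11602 and 10423 counts in Npas3-/- and 7992 and 5559 in wild type, so that counts of Ap2m1 and its copy are uncertain. For Ap3s1, 428 of 1490 words occur in Ap3s1-ps1, with 115 and 64 counts in Npas3-/- and 179 and 115 in wild type. Ap3m2, Ap3b1, Ap3d1 and Ap1m1 shared 0 such words with any other annotated gene.

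Per length, the order of the levels differed between genotypes. In Npas3-/- the order was Ap2m1 at 126 ± 11 CPM per kilobase, Ap1m1 at 33.6 ± 0.516, Ap2b1 at 30.5 ± 4.05, Ap3m2 at 24.3 ± 2.07, Ap3d1 at 22.6 ± 3.02, Vcl at 20.3 ± 6.02, Ap3s2 at 19.7 ± 0.503, Ap3b1 at 7.39 ± 2.25, Ap3s1 at 4.76 ± 1.21 and Ap3m1 at 0.52 (SD, n = 2). In wild type Ap2m1 stood at 71.7 ± 13.7 CPM per kilobase, Ap2b1 at 38.8 ± 3.59, Vcl at 29.2 ± 4.29, Ap1m1 at 20.8 ± 3.30, Ap3d1 at 20.7 ± 1.12, Ap3m1 at 17.8 ± 6.44, Ap3b1 at 16.7 ± 1.12, Ap3m2 at 16 ± 0.25, Ap3s2 at 11.5 ± 1.39 and Ap3s1 at 11 ± 0.794. The libraries of neighbouring genes overlapped in Npas3-/- between Ap1m1 and Ap2b1 and in the run Ap3m2, Ap3d1, Vcl and Ap3s2. In wild type they overlapped in the run Ap1m1, Ap3d1, Ap3m1, Ap3b1 and Ap3m2 and between Ap3s2 and Ap3s1. The means of the 6 AP-3 members lay between 0.52 and 24.3 CPM per kilobase in Npas3-/- and between 11 and 20.7 in wild type. Ap3b2, not a member, averaged 2.56 in Npas3-/- and 1.94 in wild type.

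Leaving aside Ap3m1, 4 of the other 9 members passed the test, 2 lower (Ap3b1 and Ap3s1) and 2 higher (Ap3s2 and Ap2m1), where 33.1% of all tested genes passed, 21.5% as lower and 11.6% as higher. In the corrected fit Ap3m2 and Ap3s2, 2 of the 9, passed as higher, where 8.79% of all tested genes passed, 3.08% as lower and 5.71% as higher. Nothing is read from these counts, since the members were listed with their values known. Libraries of both genotypes stayed apart for 8 of these 9 genes and for 75.8% of all tested genes. The median log2 fold change was 0.13 over the 9 members and -0.07 over all tested genes, and with the correction it was 0.30 over the 9 and 0.09 over all. Without Npas3-/- replicate 2 the edgeR test called 0 genes in the whole table, members included, with 5728 genes at an unadjusted p below 0.05, while DESeq2 called 3614 genes.

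**Figure D3:**
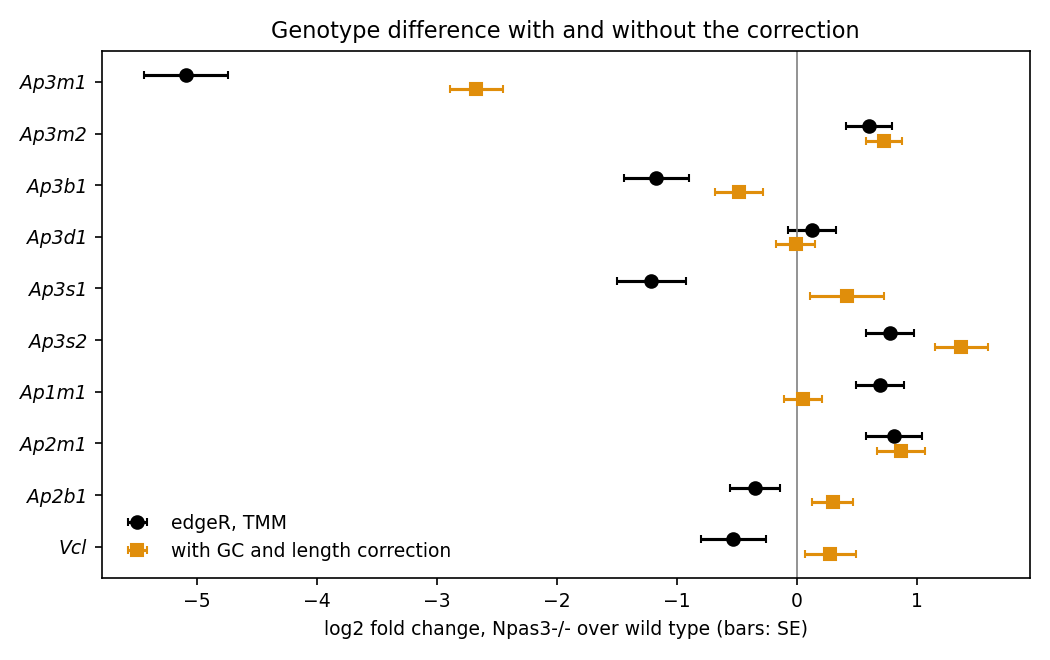
Log2 fold change of each gene, Npas3-/- over wild type, from edgeR with TMM scaling (circles) and with the GC and length correction (squares), with bars of 1 SE. Ap3m1 stood at -5.09 and -2.67, Ap3s2 at 0.78 and 1.37, and Ap3d1, Ap3s1, Ap2b1 and Vcl changed sign.

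The genotype difference followed transcript composition over the whole table, and the members followed it in part. Genes with at least 1 CPM and a transcript GC content of 40 to 44% had a median log2 fold change of -2.19 (1850 genes, 5th to 95th percentile -3.43 to 0.07). Ap3m1, at 42.1% GC, lay below that range, but it was chosen by its fall in this comparison, so its place is a description only. Ap3s1, at 40.9%, lay above the median. Between 48 and 52% GC the median was 0.00 (3080 genes, -1.76 to 1.21), and Ap3m2, Ap3b1, Ap3s2, Ap2m1, Ap2b1 and Vcl lay within that range. Between 52 and 56% it was 0.56 (3069 genes, -0.79 to 1.49), with Ap3d1 and Ap1m1 within the range.

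The paralogues differ in composition. Ap3m1 has a 3′ UTR of 5161 bases with 40.8% GC and a coding part of 1257 bases with 42.5% GC, and Ap3m2 a coding part of the same length with 51.6% GC and a 3′ UTR of 1999 bases with 49.0% GC. The coding parts of Ap3s1 and Ap3s2 are both 582 bases long, and transcripts as a whole have 40.9% and 50.2% GC. Within wild type, replicate 2 was 1.69 times replicate 1 for Ap3m1 and between 0.761 and 1.11 times for the other members. Within Npas3-/-, replicate 2 was 1.00 times replicate 1 for Ap3m1 and between 0.647 and 1.13 times for the others. Transcript composition moved with the genotype difference, and its part in the values of single members beyond the correction was not tested.

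**Figure D4:**
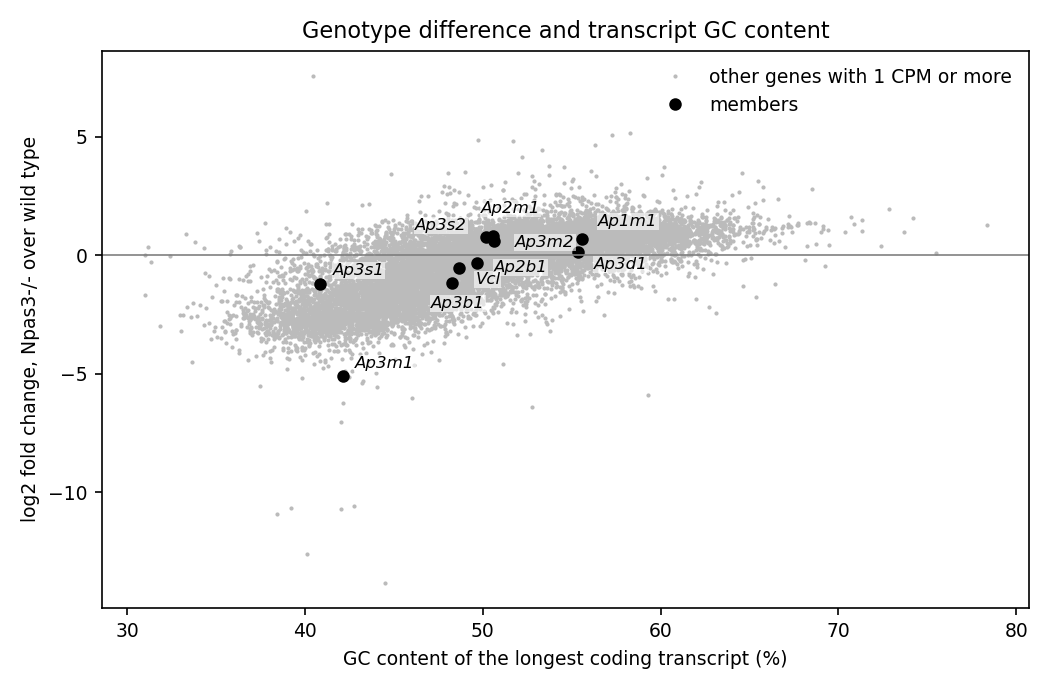
Log2 fold change, Npas3-/- over wild type, against the GC content of the longest coding transcript in percent, for genes with at least 1 CPM (grey) and the 10 members (black, named). Ap3m1 at 42.1% GC, chosen by its fall in this comparison, lies below the 5th percentile of -3.43 of genes with 40 to 44% GC. The other members lie between the 5th and 95th percentiles of genes with like GC content.

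Around Ap3m1, 17 other tested genes lay at least in part within 500 kb. They had log2 fold changes between -2.31 and 1.23 with a median of -0.19, against -0.07 over all tested genes. Of the 17, 2 passed the test, both lower in Npas3-/-, where 21.5% of all tested genes were called lower and 11.6% higher. Kat6b, a histone acetyltransferase gene, had 10.0 and 4.53 CPM in Npas3-/- and 27.3 and 45.2 CPM in wild type (log2 fold change -2.31, SE 0.49; adjusted p = 0.0247, edgeR). Ppp3cb, a calcineurin catalytic subunit gene, had 17.9 and 17.6 CPM in Npas3-/- and 68.0 and 46.9 CPM in wild type (log2 fold change -1.69, SE 0.27; adjusted p = 0.0152, edgeR). Neither passed with the correction (adjusted p = 0.0789 for Kat6b and 0.679 for Ppp3cb, where the log2 fold change was -1.15 and 0.35), and the Ppp3cb call ended without Npas3-/- replicate 1 (adjusted p = 0.0546, edgeR).

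Adk, whose annotated start in GENCODE lies 66 bases from that of Ap3m1, had 65.2 and 60.2 CPM in Npas3-/- and 84.7 and 95.8 CPM in wild type. Its libraries were lower in Npas3-/- without overlap, but the log2 fold change of -0.53 (SE 0.19) did not pass (adjusted p = 0.0841, edgeR), and with the correction it was 0.57. On the Vcl side, the protease gene Plau had 7.59 and 12 CPM in Npas3-/- and 17.6 and 12.2 CPM in wild type (log2 fold change -0.60, SE 0.36; adjusted p = 0.245, edgeR). The kinase gene Camk2g had 41.6 and 78.9 CPM in Npas3-/- and 52.2 and 40.6 CPM in wild type (log2 fold change 0.38, SE 0.35; adjusted p = 0.435), with overlapping genotypes.

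**Figure D5:**
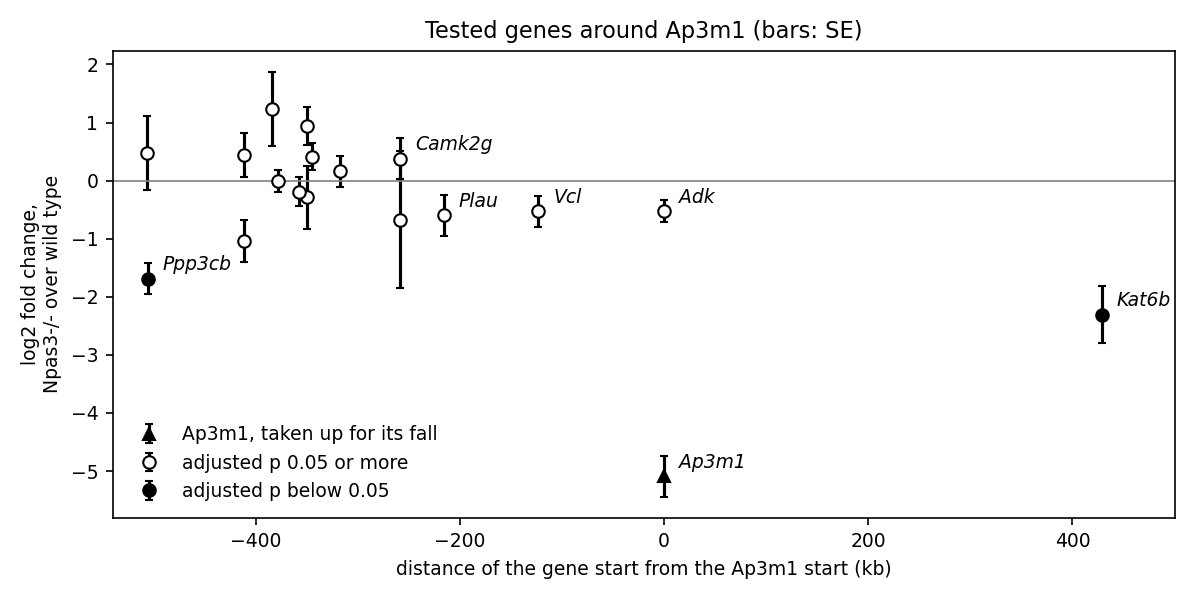
Log2 fold change, Npas3-/- over wild type, with bars of 1 SE, against the distance of each gene start from the Ap3m1 start in kilobases, for Ap3m1 (triangle) and 17 other tested genes. Adk and Vcl, the nearest on either side, both stood at -0.53, Ap3m1 at -5.09, and the filled circles are Kat6b and Ppp3cb.

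Genes that work with AP-3 were counted in lists by function, read beside the 11.6% of tested genes that were called higher and 21.5% called lower, or 5.71% higher and 3.08% lower with the correction. Of 21 subunit genes of AP-1, AP-2, AP-4 and AP-5, which include the members Ap1m1, Ap2m1 and Ap2b1, 4 rose (Ap2m1 among them) and 4 fell, and their median log2 fold change was 0.14. The AP-4 subunit gene Ap4e1 had 1.61 and 1.00 CPM in Npas3-/- and 6.44 and 10.6 CPM in wild type, and the AP-1 gamma subunit gene Ap1g1 32.0 and 19.0 CPM against 79.6 and 121 CPM. Ap5m1, the AP-5 mu subunit gene, had 2.5 and 1.42 CPM in Npas3-/- and 9.43 and 22.7 CPM in wild type. All 3 fell (adjusted p between 0.0170 and 0.0198, edgeR). With the correction 0 of the 21 passed, and these 3 stood at log2 fold changes between -0.70 and -0.28 (adjusted p between 0.187 and 0.418, edgeR).

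Among 16 genes of clathrin and the ARF machinery, which recruit and coat adaptors, 6 rose and 4 fell, and their median log2 fold change was 0.65. The clathrin heavy chain gene Cltc fell, with 74.1 and 47.0 CPM in Npas3-/- and 305 and 527 CPM in wild type (log2 fold change -2.78, SE 0.38; adjusted p = 0.0134, edgeR). The endocytic adaptor gene Picalm fell by 2.26 on the log2 scale and Eps15 fell by 2.55 (adjusted p = 0.013 each, edgeR). With the correction 2 of the 16 passed, both higher, and Cltc stood at -0.65 (adjusted p = 0.0629), Picalm at 0.15 and Eps15 at -0.18.

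Of 15 genes of the BLOC complexes and their RABs, which act with AP-3 in lysosome-related organelles, 4 rose and 1 fell, with a median of 0.71. The BLOC-1 genes Dtnbp1 and Bloc1s1 rose by 1.44 (SE 0.27; adjusted p = 0.0203, edgeR) and 1.38 (SE 0.27; adjusted p = 0.0208), and Bloc1s1 lost its call without wild-type replicate 2 (adjusted p = 0.0541). The BLOC-2 gene Hps3 fell, with 2.02 and 1.75 CPM in Npas3-/- and 10.2 and 17.2 CPM in wild type (log2 fold change -2.86, SE 0.40; adjusted p = 0.0134, edgeR). With the correction these 3 did not pass (adjusted p between 0.0570 and 0.243), and 2 of the 15 passed, both higher.

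Of 18 genes of AP-3 cargo and lysosome delivery, 14 were tested, of which 3 rose and 4 fell, with a median of 0.08. Vps41, a HOPS subunit gene that also acts with AP-3 in yeast, fell, with 19.8 and 16.7 CPM in Npas3-/- and 73.6 and 135 CPM in wild type (log2 fold change -2.51, SE 0.35; adjusted p = 0.0134, edgeR). With the correction 1 of the 14 rose and 1 fell. Vps41 was the lower (log2 fold change -1.08; adjusted p = 0.0433, edgeR), and the higher was Cd63, a tetraspanin gene of AP-3 cargo named after its values were seen, with 496 and 725 CPM in Npas3-/- and 261 and 201 CPM in wild type (corrected log2 fold change 1.27; adjusted p = 0.0283, edgeR). The endosomal chloride transporter gene Clcn3 fell by 2.26 and the lysosomal membrane protein gene Lamp2 fell by 2.61 (adjusted p = 0.0134 and 0.0144, edgeR) and stood at 0.14 and -0.25 with the correction.

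Of 17 adhesion genes that act with vinculin, 2 rose and 5 fell, with a median of 0.02. The focal adhesion kinase gene Ptk2 had 1895 and 1542 counts in Npas3-/- and 6945 and 7877 counts in wild type, and the kindlin gene Fermt2 had 42.8 and 36.5 CPM against 141 and 175 CPM. Both fell (log2 fold change -1.92, SE 0.21 and -1.99, SE 0.22; adjusted p = 0.013 each, edgeR) and passed with the correction (-1.04, adjusted p = 0.026, and -0.86, adjusted p = 0.0346), where 3 of the 17 passed, all lower. The integrin gene Itgb1 fell by 1.30 (SE 0.22; adjusted p = 0.0167, edgeR), a call lost without Npas3-/- replicate 1 (adjusted p = 0.0624), and stood at 0.13 with the correction. Of the 15 list genes named by their p-values, 13 kept their edgeR call in each fit that left out a single library other than Npas3-/- replicate 2.

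The genes whose pattern lay nearest to Ap3m1 were found among 11027 tested genes with at least 5 CPM on average over the 4 libraries, which Ap3m1 and genes like it reach through wild type, by the Euclidean distance between log2 CPM values centred on each gene's mean over the 4 libraries. They were Gpm6a (distance 0.324), Casp1 (0.684), Fabp7 (0.797), Pla2g4a (0.914) and Mier1 (0.953). Gpm6a, a membrane glycoprotein gene, had 4.37 and 5.08 CPM in Npas3-/- and 96.5 and 169 CPM in wild type. Their log2 fold changes lay between -4.81 and -4.32, their transcripts between 39.0 and 42.6% GC, and they lie on chromosomes 8, 9, 10, 1 and 4. The likeness rests on 4 libraries and was used only to name them.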

How the data were processed

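The authors deposited raw counts per gene for the 4 samples. The submitters' processing notes name featureCounts, HISAT2 2.1.0, Trimmomatic 0.3.8 and mm10. Annotation release, strand setting and treatment of shared reads: not given in the sources used here. Identifiers were matched without version to GENCODE M21 (53274 of 53379, 50604 with the same version; Ap3b1, Ap3s1 and Ap2m1 differ in version).

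Genotypes were compared by edgeR 4.0.16 in R 4.3.3 with its quasi-likelihood test (TMM, filterByExpr with a minimum count of 10, 2 residual degrees of freedom), adjusted over 18838 genes by Benjamini-Hochberg, threshold 0.05. SE is the log2 fold change over the square root of F. The GC and length correction entered, per library, natural splines with 6 degrees of freedom in each, fitted to log2 CPM (pseudocount 2), as an offset. It also removes true differences that follow composition. Alternatives were other scalings and filters, DESeq2 1.42.0, limma-voom (limma 3.58.1), a replicate block and leaving out samples. Scripts were tested on simulated data.

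Members, lists and tests were chosen with earlier results of these data known. Besides the members, the genes named were Npas3, the 3 non-member genes with the smallest p-value in each pathway list, tested genes overlapping a member or within 500 kb of Ap3m1, and the 5 most like Ap3m1. A gene that this rule names is not reported here. Pseudogenes were named after their shared sequence was seen.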

Additional observations from a re-analysis of the deposited data

How the results depend on the processing

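Ap3m1 was lower in Npas3-/- in all 19 settings compared, the main fit included, at log2 fold changes between -5.44 and -2.48. These settings refit the counts that chose Ap3m1, so its direction in them is a description only. Each paralogue share kept its direction with other choices of length and with each library left out. The shares were not computed with the GC and length correction. With all 4 libraries edgeR called 6232 of 18838 tested genes and 5 members. Member counts are over all 10 and so cover Ap3m1, which was chosen in this contrast, and nothing is read from them. DESeq2 size factors in edgeR gave 6425 of 18838 tested genes and 7 members. A minimum of 5 CPM on average left 11652 genes to test, and 5979 genes and 7 members were called. Of 18838 tested genes DESeq2 called 8372, with 7 members, and limma-voom 6036, with 6 members. Ap3m2 (adjusted p = 0.0497 and 0.0453) and Ap1m1 (0.0441 and 0.0364) were the added members in the 2 edgeR fits. Scaling by library totals moved the median log2 fold change of all genes from -0.07 to -0.296, called 3 members and turned Ap3d1 to -0.09. It moved the lower share of called genes from 64.9% to 81.5%, and the GC and length correction moved it to 35%. Without a filter on low counts 27026 genes were tested, and 3997 genes and 3 members were called. The correction called 1656 genes and 3 members and put Ap3d1 at -0.01, Ap3s1 at 0.42, Ap2b1 at 0.30 and Vcl at 0.28. The cause of these moves was not tested.

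Leaving out 1 library gave 0 to 5832 genes and 0 to 4 members. The 0 came without Npas3-/- replicate 2, where 5728 genes and 2 members had an unadjusted p below 0.05 by edgeR and DESeq2 called 3614 genes and 1 member. The log2 fold change of Ap3m1 lay between -5.44 and -4.68 in these fits, at -5.09 without Npas3-/- replicate 2, and that of Ap3d1 between -0.01 and 0.27. With the correction as well, 0 to 2123 genes and 0 to 3 members were called. There edgeR called 0 without Npas3-/- replicate 1 (4468 genes and 5 members at an unadjusted p below 0.05) and 0 without Npas3-/- replicate 2 (3683 genes and 4 members). Without wild-type replicate 2 it called 694 genes and 1 member. In these corrected fits Ap3m1 stood at -2.48 without Npas3-/- replicate 1 and -2.96 without replicate 2, and Ap3d1 at -0.08 and Ap1m1 at -0.02 without replicate 1. Without Npas3-/- replicates 1 and 2 and wild-type replicates 1 and 2 in turn, Ap3s1 stood at 0.14, 0.62, 0.86 and 0.07, Ap2b1 at 0.33, 0.32, 0.48 and 0.16, and Vcl at 0.12, 0.46, 0.51 and 0.10.

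Samples with the same replicate number did not deviate together over the tested genes (correlation -0.156). With 2 libraries per genotype this value cannot decide whether equal numbers mark a shared culture or batch, which no label states. A replicate block gave 2560 genes and 1 member, and with the correction 1140 genes and 2 members, Ap3d1 at -0.01, Ap3s1 at 0.44, Ap2b1 at 0.31 and Vcl at 0.28. A crossed block, chosen after seeing the data, gave 7670 genes and 7 members.

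With 2 samples per genotype, the 4 member calls other than that of Ap3m1 had adjusted p between 0.03 and 0.0468 by edgeR. Each member had at least 281 counts in every library.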
